A study of Homo sapiens with 12 samples.

Results

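The effect of cordycepin on the RNA of EGF-stimulated wild-type HEK293 cells was described across transcript classes, from 4 of the 12 libraries of the series: 2 libraries of cells given cordycepin and EGF, and 2 of cells given the solvent DMSO and EGF. The libraries were chosen by their labels alone, as the WT cordycepin+EGF and WT DMSO+EGF samples with replicate numbers 2 and 3. HEK293 is an established human embryonic kidney line. All cells had been starved of serum for 24 h (medium with 0.1% FBS), then took DMSO at 0.025% or cordycepin at 25 µM for 20 min, and EGF was added for a further 30 min, which makes 50 min of treatment in total. The EGF concentration is written as 15 µM in the sample labels and as 15 nM in the design text, and this was not resolved here. The remaining 8 libraries, 2 a group, were WT cells given DMSO without EGF, and a HEK293 derivative with both catalytic AMPK subunits knocked out by CRISPR-Cas9 (AMPK KO) under the same 3 treatments. They entered the fit to estimate the spread between replicates, and their levels are given beside those of the 4 libraries. Nothing in the labels says that replicates were separate cultures, so p-values measure only the spread between these samples.

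Cordycepin is 3′-deoxyadenosine, an adenosine analogue without the hydroxyl group to which the next nucleotide of an RNA chain is joined. Cells phosphorylate it, and its triphosphate can end a growing poly(A) tail. The paper states that pre-mRNA synthesis as a whole is not ended this way in intact cells, though transcription of some mRNAs and of rRNAs is inhibited. EGF binds its receptor and, through the RAS-ERK cascade, switches on immediate early genes within minutes, many of them transcription factors whose transcripts are short lived. Many long noncoding RNAs, divergent transcripts from promoters and read-through products are turned over quickly in the nucleus, and mitochondrial tRNAs are cut out of long polycistronic transcripts and receive their CCA end after transcription. The classes below hold transcripts that differ in these respects, and they were chosen with earlier results of these data known.

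The libraries were stranded and depleted of ribosomal RNA. Values are RPKM (reads scaled to gene length in kilobases and to the read total of the library). They were divided by the upper quartile of each library and multiplied by the mean upper quartile of the 12 libraries. Differences are cordycepin+EGF minus DMSO+EGF on the scale of log2(RPKM + 0.5), fitted with limma over 22067 genes in all 12 libraries. The 4 libraries held 24948428 and 16606866 reads on listed genes with DMSO+EGF (replicates 2 and 3 in this order, here and below) and 26350816 and 15376276 with cordycepin+EGF. Of 12 HEK293 markers, 9 had a mean level of at least 1 RPKM over the 4 libraries, and all 12 together summed to 199 to 208 RPKM in the DMSO+EGF libraries and 165 to 169.6 RPKM in the cordycepin+EGF libraries. Of 16 markers of blood, liver, endothelial and fibroblast cells, 5 were listed and 2 reached that level (COL1A1 and HBA1), and the 5 together summed to 5.06 to 5.70 RPKM in the DMSO+EGF libraries and 8.13 to 9.74 RPKM in the cordycepin+EGF libraries.

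A set of genes did not follow the treatment labels and has to be set out before the results. Of the 487 genes with a mean of at least 1 RPKM, no overlap between the groups and a difference past the study's threshold (unadjusted p of at most 0.05 and at least 1 on the log2 scale), 278 had the level of unstimulated WT DMSO replicate 3 on the cordycepin side of the midpoint between the groups and that of unstimulated replicate 2 on the DMSO+EGF side. The opposite arrangement held for 23 genes. Without any threshold, the groups did not overlap for 29.2% of all genes tested in the higher and 24.7% in the lower direction. Neither unstimulated library had received cordycepin or EGF. Among protein-coding genes that were lower, 127 of 131 were split in this way, and among those that were higher 32 of 73. Over the 127 lower genes, the median level relative to each gene's own mean was 0.90 in WT DMSO replicate 2, 0.86 and 0.78 in WT DMSO+EGF and 0.66 in AMPK KO cordycepin+EGF replicate 3. It was -0.40 in WT DMSO replicate 3, -0.33 and -0.46 in WT cordycepin+EGF, -0.01 in AMPK KO cordycepin+EGF replicate 2, and -0.61 to -0.26 in the other AMPK KO libraries. For 201 of the 278 genes the cordycepin effect had the opposite sign in AMPK KO cells. The same share was not counted for the other called genes or over all genes, so whether it is particular to the split genes is not known. WT DMSO replicate 3 was also the shallowest library, with 3994812 reads and 1170 genes at 0. The part of depth in this split was not tested, and for these genes an effect of cordycepin cannot be told apart from whatever divides the WT libraries without it. Levels in both unstimulated WT libraries are therefore printed for the genes described in most detail below. For a gene given only by its difference and p, the word split in the brackets marks the same arrangement, read over all genes with an unadjusted p under 0.05 and no overlap between the groups.

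**Figure D1:**
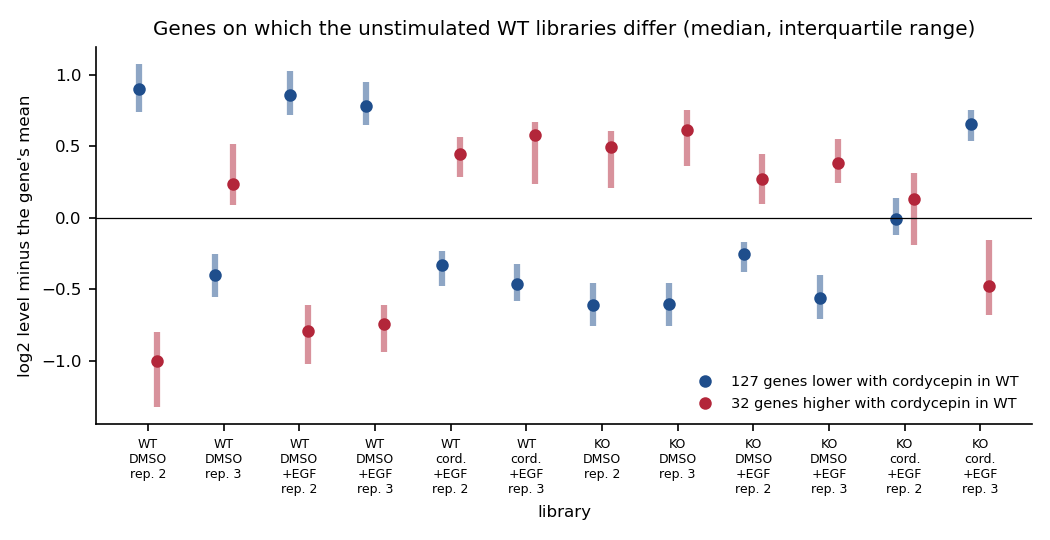
Level of each of the 12 libraries relative to each gene's mean (log2 scale, vertical axis) for the protein-coding genes split between the unstimulated WT libraries, with points for the median and bars for the interquartile range over genes. The 127 genes lower with cordycepin (blue) were also low in WT DMSO replicate 3 (-0.40) and high in WT DMSO replicate 2 (0.90), and the 32 genes higher with cordycepin (red) were the reverse.

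Across all genes, the study's threshold was passed by 358 higher genes (1.62% of those tested) and 218 lower genes (0.988%). With Benjamini-Hochberg adjustment in limma, 1 gene passed an adjusted p of 0.05 (0.00453%), EGR1, which was lower. No gene passed in the other direction, where 1955 genes (8.86%) had an unadjusted p under 0.05, beside 1574 lower genes (7.13%). Of those higher, 800 of 1949 without overlap were split, and of those lower 892 of 1573 (56.7%). The counts at an unadjusted p under 0.05 were 1214 higher and 648 lower without DMSO+EGF replicate 2, 1049 and 754 without DMSO+EGF replicate 3, and 1116 and 693 without cordycepin+EGF replicate 3. With the RPKM as deposited the counts were 1572 higher against 2032 lower, and with median-ratio scaling 1549 against 2015, so the balance of directions depends on the scaling. Without cordycepin+EGF replicate 2, 424 lower genes passed the study's threshold. voom on reads recovered from the RPKM steps called 387 higher and 394 lower genes at an adjusted p under 0.05. Blocking on the replicate number within each cell line gave 5 lower genes, EGR1 (adjusted p 0.045), LINC02226 (0.038), ARC (0.044), MIR222HG (0.044) and GK-IT1 (0.044), and no higher gene. Leaving out either unstimulated WT library gave 3 higher genes (GALR2, RPS26P39 and ENSG00000279641) and 4 lower ones (EGR1, ARC, LINC02226 and PIGUP1). Apart from EGR1, the genes below are named at an unadjusted p, so a class is described by how many of its members had an unadjusted p under 0.05 in each direction, read against 8.86% and 7.13%. The median difference over all genes was 0.03.

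Immediate early transcripts were among the furthest down of the well-counted genes. EGR1, a zinc finger transcription factor and a classical immediate early gene (chromosome 5, 138465479 to 138469303, plus strand, GRCh38), had 2.65 and 2.37 RPKM in unstimulated WT cells, 227 and 202 RPKM with DMSO+EGF and 55.1 and 51.0 RPKM with cordycepin+EGF. Both cordycepin libraries lay well below both DMSO+EGF libraries and well above both unstimulated ones. The log2 difference was -2.0 (SE 0.19, adjusted p 0.044, limma), and over 18 other settings it ran from -2.09 to -1.92 with adjusted p between 4.1e-05 and 0.45. ARC, an activity-regulated cytoskeletal protein gene (chromosome 8, 142611049 to 142614479, minus strand), had 2.43 and 1.32 RPKM unstimulated, 12.8 and 11.0 RPKM with DMSO+EGF and 1.86 and 1.13 RPKM with cordycepin+EGF, a difference of -2.66 (SE 0.29, unadjusted p 8.3e-06). Its cordycepin libraries sat at the unstimulated level. MYC, the growth-promoting transcription factor (chromosome 8, 127735434 to 127742951, plus strand), had 28.3 and 20.5, 44.4 and 44.6 and 11.6 and 11.1 RPKM in the same order, a difference of -1.93 (SE 0.28, unadjusted p 8.3e-05). Both cordycepin libraries held less MYC than either unstimulated library, although by the midpoint rule MYC also counts among the split genes.

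**Figure D2:**
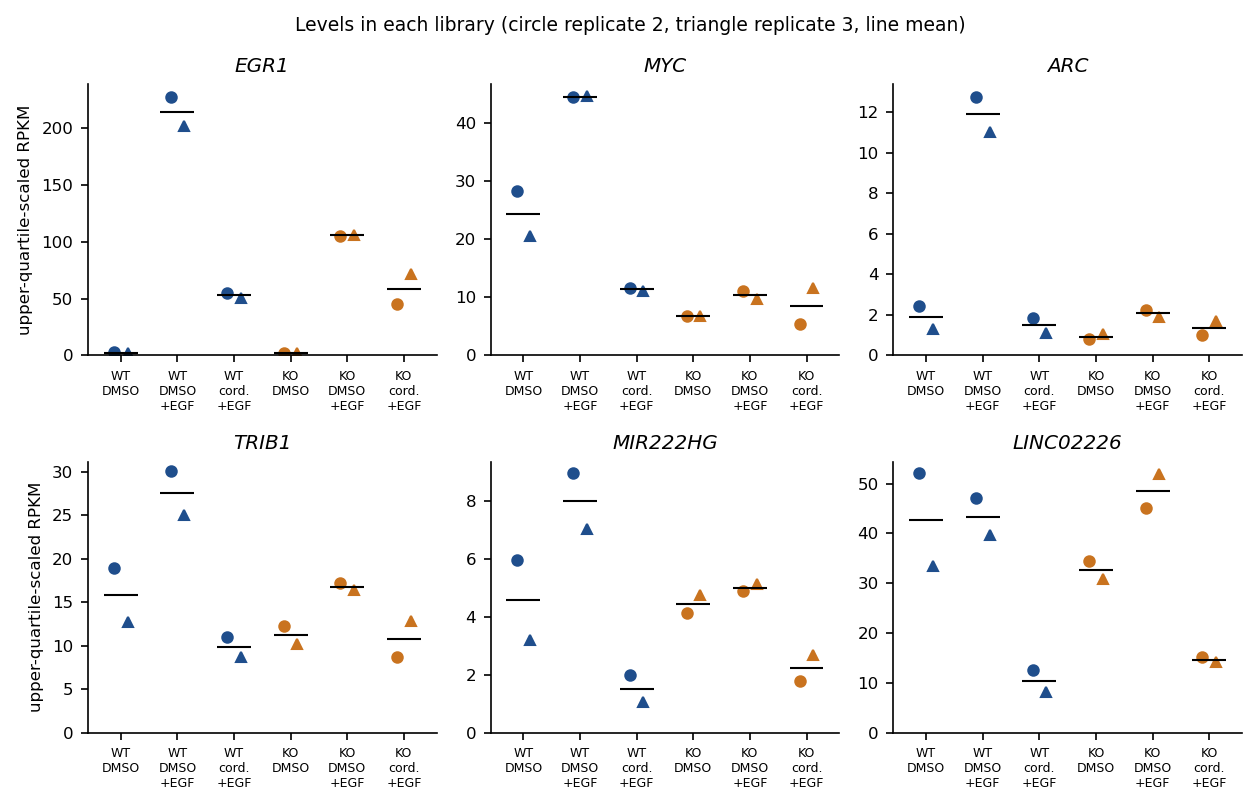
Upper-quartile-scaled RPKM (linear vertical axes from 0) of 6 genes in the 12 libraries, as circles for replicate 2, triangles for replicate 3 and a line for the group mean, with WT in blue and AMPK KO in orange. EGR1 stood at 227 and 202 RPKM in WT DMSO+EGF and 55.1 and 51.0 RPKM in WT cordycepin+EGF, while LINC02226 was at 52.2 and 33.4 RPKM in WT DMSO and 12.7 and 8.22 RPKM in WT cordycepin+EGF.

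The EGR1 promoter is shown because EGR1 was the one gene past adjustment and carries the serum response elements through which ERK signalling reaches immediate early genes. The 300 bases run from 250 before to 50 after the start of the RefSeq transcript (GRCh38.p14, chr5:138465229-138465528, plus strand, written 5′ to 3′), and capitals mark the 2 matches to the CArG box, the core of the serum response element, which a script found 105 and 83 bases before the start site.

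EGR1 promoter: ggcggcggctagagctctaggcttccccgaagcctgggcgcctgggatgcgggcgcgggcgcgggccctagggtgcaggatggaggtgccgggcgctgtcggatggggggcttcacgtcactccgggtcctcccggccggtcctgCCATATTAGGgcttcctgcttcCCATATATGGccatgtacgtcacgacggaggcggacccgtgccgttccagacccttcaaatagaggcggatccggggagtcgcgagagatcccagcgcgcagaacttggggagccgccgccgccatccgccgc

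The CArG box is its own reverse complement, so both strands were covered. A match was found in the promoter windows of 438 of 27305 genes in the RefSeq table (1.60%), and 11 genes held more than 1. Of the 36 inducible transcription factor genes tested, 28 were in the table and 3 had a match, namely EGR1, EGR2 and SRF. Of the 8 that were lower at an unadjusted p under 0.05 in limma, 6 were in the table and 1 had a match, EGR1. An element further from the start site than this window would be missed. A match is a description of the letters in this window and says nothing of binding.

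Among inducible transcription factors, a list of immediate early and early response genes, 36 of 39 were tested, and 1 was higher and 8 lower (2.78% and 22.2%). The median difference was -0.18 (-0.22 to -0.10 over the 4 pairings of a cordycepin with a DMSO+EGF library), against 0.03 for all genes. Relative to all genes it was -0.21, and -0.12 without DMSO+EGF replicate 2. The lower genes were EGR1, MYC, EGR3, KLF11, FOSB, FOS, JUN and BHLHE40. EGR3, a relative of EGR1, had 0.246 and 0.394 RPKM unstimulated, 7.21 and 8.54 with DMSO+EGF and 2.86 and 2.69 with cordycepin+EGF, a difference of -1.35 (SE 0.17, unadjusted p 2.7e-05). FOS, a partner in the AP-1 dimer, had 0.908 and 0.622 RPKM, 12 and 11.5 RPKM and 7.15 and 6.39 RPKM, a difference of -0.76 (SE 0.21, unadjusted p 0.0057). JUN, the other AP-1 partner, had 68.8 and 65.6 RPKM with DMSO+EGF and 43.7 and 43.7 RPKM with cordycepin+EGF, a difference of -0.61 (SE 0.14, unadjusted p 0.0017). So with cordycepin FOS still stood far above its unstimulated level, while JUN lay close to its own (36.3 and 40.5 RPKM). For 6 of the 8 lower genes both unstimulated libraries lay on the cordycepin side of the midpoint, while MYC and KLF11 were split between them, and KLF11 more widely (2.79 and 0.701 RPKM unstimulated, 3.13 and 2.77 with DMSO+EGF and 1.10 and 1.05 with cordycepin+EGF). NR4A1, an orphan nuclear receptor of the same early response, was the only member that was higher, at 1.54 and 1.53 RPKM unstimulated, 2.38 and 2.83 RPKM with DMSO+EGF and 4.02 and 4.81 RPKM with cordycepin+EGF, a difference of 0.66 (SE 0.16, unadjusted p 0.0026). HES4, the second most abundant member, had a difference of 0.07 (SE 0.29), and EGR2, at 0.0637 and 0.0668 RPKM unstimulated and 1.41 and 1.39 RPKM with DMSO+EGF, one of -0.35 (SE 0.19, p 0.091).

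Feedback regulators and effectors, the early genes that restrain or carry out the growth factor response, gave 10 lower and 4 higher of 49 tested (20.4% and 8.16%), with a median of -0.06 (-0.15 to -0.02). TRIB1, a pseudokinase that steers transcription factors to degradation, had 19 and 12.8 RPKM unstimulated, 30.1 and 25.1 RPKM with DMSO+EGF and 11.1 and 8.76 RPKM with cordycepin+EGF, a difference of -1.44 (SE 0.23, unadjusted p 0.00016). As with MYC, both cordycepin libraries were below both unstimulated ones, and TRIB1 too was split by the midpoint rule. Of the 10 lower genes 4 were split in all. DUSP5, a nuclear ERK phosphatase, had 4.98 and 3.22 RPKM unstimulated, 10.8 and 7.80 with DMSO+EGF and 5.59 and 4.36 with cordycepin+EGF, a difference of -0.83 (SE 0.22, unadjusted p 0.0043). CITED2 (-0.91, p 0.0096, split), SPRED1 (-0.87, p 0.035, split), SPRED2 (-0.73, p 0.0049), SPRY1 (-0.41, p 0.027, split), SPRY4 (-0.38, p 0.029), RHOB (-0.39, p 0.018) and DUSP1 (-0.33, p 0.034) were lower as well. The higher members were SPRED3 (1.12, p 0.027, split), SERTAD1 (0.69, p 0.026), BTG1 (0.47, p 0.013) and GADD45B (0.41, p 0.020). SPRED3 had 1.69 and 5.28 RPKM in the unstimulated libraries, 2.93 and 2.37 with DMSO+EGF and 6.38 and 6.25 with cordycepin+EGF. MCL1, an apoptosis inhibitor and the second most abundant member after RHOB, had a difference of -0.02 (SE 0.11).

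Long noncoding RNAs were higher more often than lower. Of 4573 long noncoding RNAs tested, 590 were higher and 137 lower (12.9% and 3.00%), and 150 against 34 passed the study's threshold. Their median was 0.14, but over the 4 pairings of libraries it ran from 0.02 to 0.26. Relative to all genes the median was 0.11, and 0.06 without cordycepin+EGF replicate 2. Most lncRNAs were low, with a median level of 1.54 RPKM, and low genes as a whole leaned the same way, since in the lowest of 5 level bins 10.4% of all genes were higher and 3.31% lower. Under 1 RPKM the median of lncRNAs (0.12) was close to that of protein-coding genes (0.12), while it was 0.11 against -0.02 from 1 to 2 RPKM, 0.17 against -0.03 from 2 to 5 RPKM and 0.21 against -0.01 above that, ranges chosen after the values were seen. Protein-coding genes (12822 tested) had a median of -0.01 (-0.03 to 0.01), with 8.27% higher and 10.0% lower. The highest median of the transcript classes described here was that of divergent transcripts, noncoding RNAs that start from the promoter of a neighbouring gene and run away from it (symbols ending in -DT). Of 269 tested, 67 were higher and 2 lower (24.9% and 0.743%), and 20 against 1 passed the study's threshold. The median was 0.32, 0.28 to 0.33 over the pairings, and 209 of the 269 differences were above 0. In the same ranges of level their medians were 0.38, 0.25, 0.32 and 0.34. Unstimulated WT replicate 3 exceeded replicate 2 by a median of 0.09 over the same transcripts, and 31 of the 67 higher ones were split between those libraries (46.3%, against 41.0% over all higher genes).

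The largest differences among divergent transcripts were those of TP53RK-DT (1.57, p 0.011, split), GOSR2-DT (1.56, p 0.020, split), RPL34-DT (1.5, p 0.0069, split) and MTA1-DT (1.44, p 0.014, split). MTA1-DT had 2.26 and 2.25 RPKM with DMSO+EGF and 6.53 and 7.44 RPKM with cordycepin+EGF, and 1.72 and 7.02 RPKM in the unstimulated libraries. Among the 24 higher transcripts for which neither unstimulated library passed the midpoint, 3 chosen after their values were seen are given here. GSK3B-DT had 1.41 and 0.836 RPKM unstimulated, 1.46 and 0.900 RPKM with DMSO+EGF and 2.38 and 2.93 RPKM with cordycepin+EGF, a difference of 0.92 (SE 0.28, unadjusted p 0.0099). CSE1L-DT had 0.695 and 0.729, 0.402 and 0.174 and 1.36 and 1.74 RPKM in the same order, a difference of 1.39 (SE 0.30, unadjusted p 0.0011), and USP38-DT 0.455 and 0.588, 0.393 and 0.281 and 1.20 and 1.30 RPKM, a difference of 1.06 (SE 0.22, unadjusted p 0.0010). In all 3 the cordycepin libraries stood above the 4 other WT libraries, at low levels. The most abundant divergent transcripts did not pass, with -0.03 (SE 0.14) for NIPBL-DT and 0.34 (SE 0.21) for NUDT19-DT. HK2-DT (-1.18, p 0.024, split) and CEBPA-DT (-0.86, p 0.020, split) were the lower ones. Whether the authors' counting used strand is not given in the sources used here, so reads of a divergent or antisense transcript and of an overlapping gene may not be separated.

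Of the other noncoding classes, LINC RNAs had a median of 0.15 (0.06 to 0.21) with 30 higher and 4 lower of 213. Antisense RNAs had 0.11 (-0.03 to 0.23) with 85 and 17 of 746, and lncRNAs without a name 0.15 (0.02 to 0.27) with 384 and 100 of 3044. Host genes of small RNAs had 0.09 (6 and 4 of 61). Intronic and overlapping transcripts had -0.09, with pairings on both sides of 0 (-0.38 to 0.17). Unprocessed pseudogenes, copies made by gene duplication, had 0.18 (0.10 to 0.30, 36 higher and 7 lower of 358), and processed pseudogenes, copies of mRNAs, 0.05 (-0.07 to 0.18). The class medians of the pseudogenes are uncertain, since reads of near-identical parent genes may be assigned to them.

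**Figure D3:**
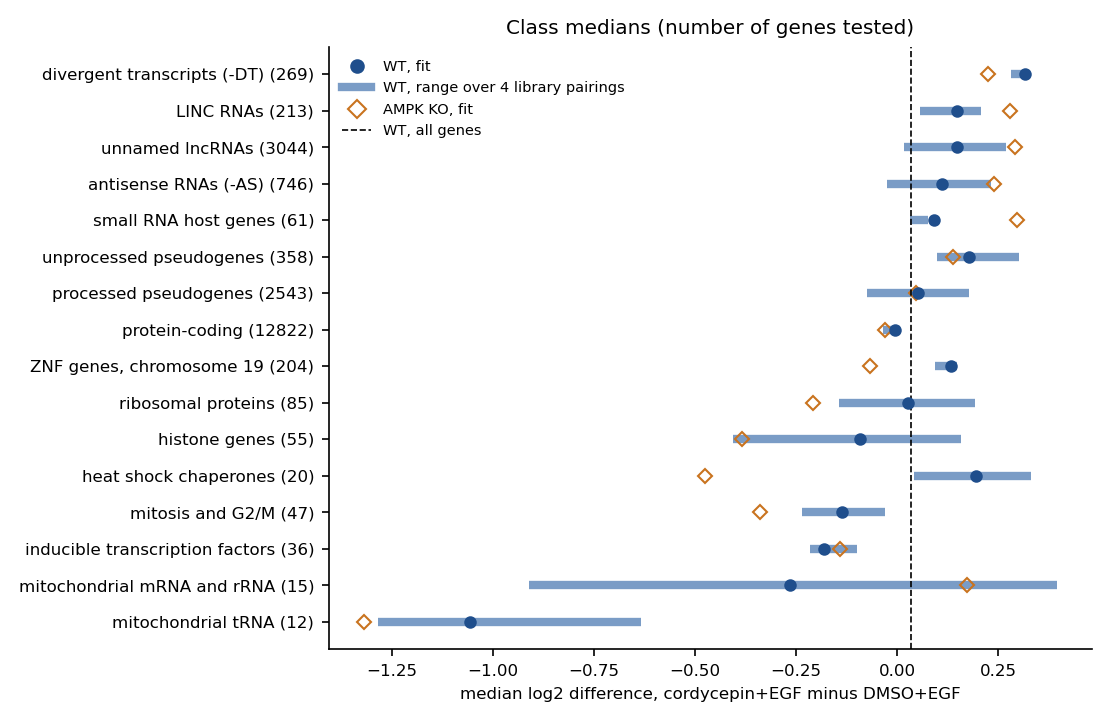
Median log2 difference of cordycepin+EGF minus DMSO+EGF (horizontal axis) for 16 transcript classes, with the number of genes tested in brackets. Filled circles give the WT fit, bars the range of the class median over the 4 pairings of WT libraries, open diamonds the AMPK KO fit and the dashed line the WT median of all genes. Divergent transcripts (0.32) had a short bar above the line, mitochondrial tRNAs (-1.06) lay far below it, and mitochondrial mRNAs and rRNAs had a bar on both sides of it.

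Against that shift, 3 named noncoding transcripts were among the furthest down of all genes. LINC02226 (chromosome 5, 8333481 to 8457558, minus strand) had 52.2 and 33.4 RPKM unstimulated, 47.0 and 39.7 RPKM with DMSO+EGF and 12.7 and 8.22 RPKM with cordycepin+EGF. Both cordycepin libraries were below all 4 other WT libraries, and the difference was -2.03 (SE 0.24, unadjusted p 1.4e-05). MIR222HG (chromosome X, 45745210 to 45770274, minus strand), the host transcript of miR-221 and miR-222, had 5.97 and 3.20, 8.96 and 7.04 and 1.98 and 1.07 RPKM in the same order, a difference of -2.10 (SE 0.31, unadjusted p 8.3e-05). GK-IT1, a transcript within an intron of the glycerol kinase gene, had 9.34 and 5.07 RPKM and 2.24 and 0.629 RPKM, a difference of -2.07 (SE 0.47, unadjusted p 0.0016), and 9.96 and 4.37 RPKM without EGF. In each of the 3, both unstimulated libraries lay above both cordycepin libraries, but MIR222HG was split by the midpoint rule, its unstimulated replicate 3 lying nearer to the cordycepin libraries. The mature RNAs cut from MIR222HG are shown because they share a seed, bases 2 to 8, given in capitals (RefSeq, GRCh38.p14), and these libraries do not measure them.

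miR-221-3p: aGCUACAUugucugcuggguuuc
miR-222-3p: aGCUACAUcuggcuacugggu

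MIR17HG, host of the miR-17 cluster, was also lower (-0.55, p 0.0044), as were SNHG32 (-0.72, p 0.0030) and MIR503HG (-0.52, p 0.034), while SNHG5 (0.74, p 0.0077) and SNHG19 (0.65, p 0.040), hosts of small nucleolar RNAs, were higher. SNHG1 (-0.17, SE 0.12) and SNHG3 (-0.15, SE 0.15), the most abundant hosts, did not pass. LINC01730 (1.36, p 0.00053), LINC02896 (1.37, p 0.0093, split) and LINC02560 (1.54, p 0.019) were higher, LINC02560 with unequal cordycepin libraries (0.928 and 3.67 RPKM against 0.425 and 0.258 RPKM).

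Mitochondrially encoded tRNA genes stood lowest of all classes. Of the 12 tested, 6 were lower at an unadjusted p under 0.05 and 0 higher, 5 passed the study's threshold, and 11 differences were below 0. The median was -1.06, and every pairing gave a value below 0 (-1.28 to -0.64). MT-TD, the tRNA for aspartate (68 bases), had 44.8 and 13.1 RPKM with DMSO+EGF (78 and 15 reads) and 2.61 and 0.918 RPKM with cordycepin+EGF (5 and 1 reads), with 13.9 and 32.8 RPKM without EGF and a difference of -3.56 (SE 0.79, unadjusted p 0.0014). MT-TR, the tRNA for arginine, had 27.6 and 32.8 RPKM (46 and 36 reads) and 8.19 and 0.960 RPKM (15 and 1 reads), a difference of -3.10 (SE 0.77, unadjusted p 0.0030), with 23.6 and 30.5 RPKM without EGF. MT-TA, for alanine, had 6.79 and 12 RPKM (12 and 14 reads) and 1.03 and 1.81 RPKM (2 and 2 reads), a difference of -2.35 (SE 0.36, unadjusted p 0.00011), with 6.85 and 3.59 RPKM without EGF (8 and 1 reads). For each of the 3, both unstimulated libraries lay above both cordycepin libraries, but MT-TA was split by the midpoint rule, with 1 read behind its unstimulated replicate 3. With as few as 1 or 2 reads behind the lower values, the sizes of these differences are imprecise. These 3 genes have 65 to 69 bases, fewer than the 150 bases of each paired read. Whether the reads counted on them came from mature tRNAs or from longer transcripts was not tested. The better counted MT-TH, for histidine (94 and 63 reads against 63 and 31), had 48.8 and 86.2 RPKM without EGF, 53.2 and 54.1 RPKM with DMSO+EGF and 32.4 and 28.0 RPKM with cordycepin+EGF, a difference of -0.82 (SE 0.25, unadjusted p 0.010), again with no overlap. MT-TN (-1.55, p 0.015) and MT-TC (-1.63, p 0.041) were also lower. Of the 6 lower tRNAs 1 was split, and 2 had the opposite arrangement. MT-TP, for proline and the most abundant (895 and 378 and 531 and 249 RPKM), had overlapping groups and a difference of -0.68 (SE 0.46), and MT-TS1 had the one positive difference, 0.56 (SE 0.76). The 3 genes with the largest differences are shown from the hg38 mitochondrial genome, 5′ to 3′ in the sense of the tRNA, with the anticodon in capitals. The CCA end is not part of the gene.

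MT-TD (chrM:7518-7585, plus strand): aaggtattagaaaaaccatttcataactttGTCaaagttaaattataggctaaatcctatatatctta
MT-TR (chrM:10405-10469, plus strand): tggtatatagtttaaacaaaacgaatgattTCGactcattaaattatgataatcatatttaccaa
MT-TA (chrM:5587-5655, minus strand): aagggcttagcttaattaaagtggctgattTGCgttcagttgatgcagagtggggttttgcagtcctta

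**Figure D4:**
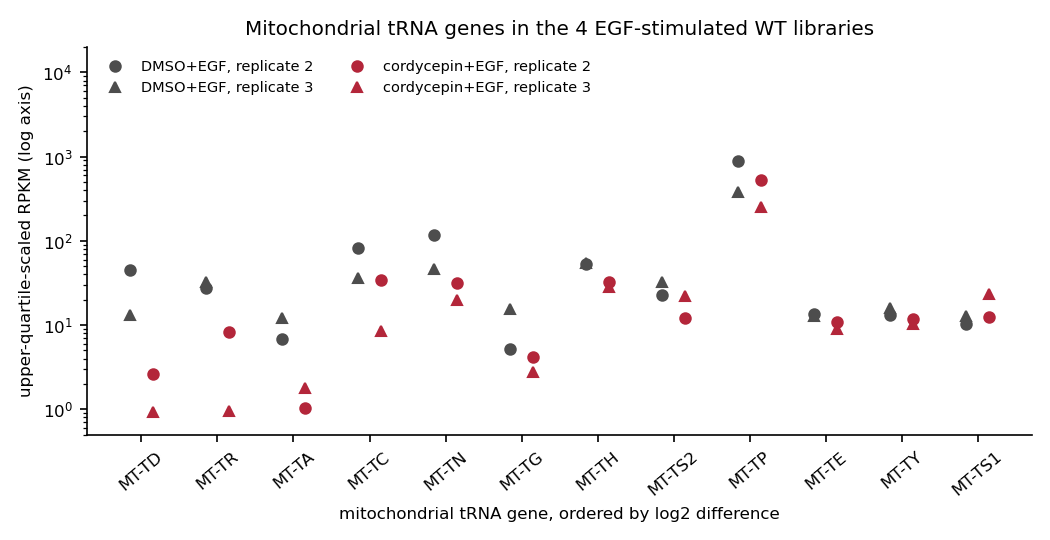
Upper-quartile-scaled RPKM (log axis) of the 12 mitochondrial tRNA genes in the 4 EGF-stimulated WT libraries, grey for DMSO+EGF and red for cordycepin+EGF, circles for replicate 2 and triangles for replicate 3. MT-TD, MT-TR and MT-TA, at the left, lay lower in both cordycepin libraries than in both DMSO+EGF libraries, and MT-TH had 53.2 and 54.1 RPKM with DMSO+EGF and 32.4 and 28.0 RPKM with cordycepin+EGF.

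Among the mRNAs of the same genome none passed an unadjusted p of 0.05. With the rRNAs included, 15 genes in all, the median was -0.27, with pairings from -0.91 to 0.40, and the libraries of one group differed from each other by as much as the groups did. MT-CO1, a subunit of cytochrome oxidase, had 9386 and 6121 RPKM with DMSO+EGF and 9285 and 4988 RPKM with cordycepin+EGF, a difference of -0.16 (SE 0.74). The rRNAs MT-RNR1 (1.49, p 0.035) and MT-RNR2 (1.67, p 0.0070) were the members that passed, both higher, and ribosomal RNA was depleted before sequencing. MT-RNR1 had 12.1 and 42.6 RPKM and 107 and 39.2 RPKM and its groups overlapped. Unstimulated replicate 3 exceeded replicate 2 by a median of 0.94 over these genes and of 0.63 over the tRNAs. Among other small RNAs, 233 spliceosomal snRNA genes and copies had a median of -0.12 (-0.37 to 0.20), 136 snoRNAs -0.04 (-0.14 to 0.14) and 101 miRNA genes 0.11 (0.10 to 0.18). RNVU1-34, a variant U1 copy (46 and 54 reads with DMSO+EGF, 4 and 4 with cordycepin+EGF, -3.19, p 5.5e-05), RNU2-63P, a U2 pseudogene (-2.03, p 0.0081, split), and a Y RNA copy on chromosome 3 (-2.30, p 0.0055) were among the 12 named transcripts furthest down. RNY4P37, a Y4 RNA pseudogene (4 and 0 reads with DMSO+EGF, 16 and 10 with cordycepin+EGF), RNU6-554P, a U6 pseudogene (4 and 1 and 16 and 8 reads), and MIR4326 (8 and 5 and 26 and 26 reads) were among the 12 furthest up. All rest on few reads and most have near-identical copies, so their differences are uncertain.

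Other transcripts without a tail, or with unusual processing, gave no shared direction. Of 9 RNAs listed as untailed only 4 were tested, and 1 was higher and 1 lower. Replication-dependent histone genes, whose mRNAs end in a stem-loop instead of a poly(A) tail, had a median of -0.09 over 55 genes, with pairings on both sides of 0 (-0.41 to 0.16), and 6 were lower and 1 higher. NEAT1, the nuclear scaffold RNA of paraspeckles, had 41.5 and 17.2 RPKM unstimulated, 61.6 and 37.3 with DMSO+EGF and 22.7 and 23.0 with cordycepin+EGF, a difference of -1.05 (SE 0.35, unadjusted p 0.015), and was split between the unstimulated libraries. RN7SL3, a copy of the signal recognition particle RNA, had 264 and 225, 301 and 205 and 404 and 874 RPKM in the same order, a difference of 1.26 (SE 0.40, unadjusted p 0.012), and its reads may be shared with near-identical copies. Cytoplasmic ribosomal protein genes, with abundant and stable mRNAs, had a median of 0.03 over 85 genes (-0.14 to 0.19), with 4 higher and 1 lower. Nuclear genes of oxidative phosphorylation had -0.02 over 91 genes (4 higher and 5 lower), and protein-coding genes with a single exon, histones left out, 0.02 over 245 (17 and 20).

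Protein-coding genes differed by the length of DNA they span, from first to last annotated base. In 5 bins of equal size, the median difference went from 0.12 for the shortest genes (up to 10.1 kb, n = 2565) through 0.08, 0.02 and -0.05 to -0.16 for the longest (from 98.6 kb, n = 2565). In the shortest bin 359 genes were higher and 174 lower (14.0% and 6.78%), and in the longest 57 and 442 (2.22% and 17.2%). The longest minus the shortest bin was -0.28, -0.18 without cordycepin+EGF replicate 3 and -0.40 without cordycepin+EGF replicate 2. Every pairing of libraries kept the longest bin below 0 (-0.21 to -0.12) and the shortest above it (0.05 to 0.19). The gradient was also seen among genes of like level, with 0.17 against -0.21 for genes with a mean of 2 to 5 RPKM, and 0.02 against -0.09 for those of 20 RPKM or more. Between the unstimulated WT libraries, which had no cordycepin, replicate 3 minus replicate 2 gave 0.16, 0.08, 0.04, -0.05 and -0.19 over the same bins, a gradient of like size. In AMPK KO cells the medians, not matched for level, ran from 0.02 to -0.06 and -0.04. There 14.7% were higher and 9.36% lower in the shortest bin, and 5.07% and 15.7% in the longest. Among genes of like level the shortest bin stood above the longest in this line too. The medians were 0.19 against 0.03 from 2 to 5 RPKM, and -0.24 against -0.28 from 20 RPKM. In WT cells an association of the cordycepin effect with span cannot be told apart from the difference between the WT libraries described above. Among the 477 genes over 300 kb, 87 were lower and 7 higher, and those with the largest differences were CNTNAP2 (-1.38, p 0.0073, split), PLCH1 (-1.32, p 0.013, split) and LRRTM4 (-1.18, p 0.024, split). Of the 87 lower ones 59 were split. CNTNAP2, a neuronal adhesion gene, had 4.28 and 1.62 RPKM unstimulated, 3.22 and 3.62 with DMSO+EGF and 1.09 and 0.922 with cordycepin+EGF. Among lncRNAs the median went from 0.22 in the shortest bin (up to 0.997 kb) to 0.08 in the longest (from 18.8 kb).

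**Figure D5:**
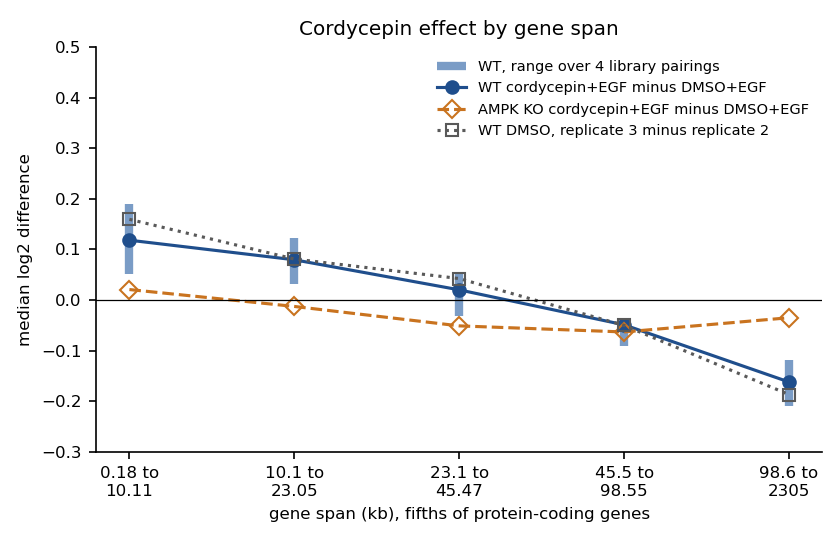
Median log2 difference (vertical axis) of protein-coding genes in 5 bins of gene span in kb (horizontal axis). Filled circles give WT cordycepin+EGF minus DMSO+EGF with bars for the range over the 4 library pairings, open diamonds the same contrast in AMPK KO, and open squares WT DMSO replicate 3 minus replicate 2. The circles went from 0.12 to -0.16, the squares from 0.16 to -0.19, and the diamonds stayed between -0.06 and 0.02, none of them matched for level.

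Outside the EGF response, the protein-coding genes with the largest decreases were split genes, and those with the largest increases were of both kinds. Next to ARC, EGR1 and MYC, the largest decreases were those of COQ3, a ubiquinone biosynthesis enzyme (-1.99, p 0.0061, split), RASL10B, a RAS-like GTPase (-1.90, p 0.0030, split), and MRPL54, a mitochondrial ribosomal protein (-1.81, p 0.0047, split). RASL10B had 16.9 and 5.50 RPKM in unstimulated cells, 22.8 and 21.0 with DMSO+EGF and 5.51 and 5.47 with cordycepin+EGF, and its difference in AMPK KO cells was 1.36 (p 0.018). NUP205, a nuclear pore scaffold with a higher level, had 46.8 and 11.7, 39.3 and 42.0 and 12.6 and 12.8 RPKM in this order (-1.64, p 0.014, split). The largest increase was that of GALR2, a galanin receptor, at 1.79 and 1.64 RPKM and 12.1 and 11.4 RPKM, with 1.12 and 9.38 RPKM unstimulated, a difference of 2.47 (SE 0.66, unadjusted p 0.0047). PRRG2 (2.38, p 0.029, split), CIB3 (2.03, p 0.018, split) and HSPA1L (1.68, p 0.0014, split) were higher too, and GALR2 was split as they were. NDUFA4L2, a hypoxia-inducible mitochondrial protein, was not split, with 0.969 and 2.39 RPKM unstimulated, 1.43 and 1.73 with DMSO+EGF and 6.87 and 8.55 with cordycepin+EGF, a difference of 1.97 (SE 0.32, unadjusted p 0.00018), and in AMPK KO cells it was 1.75 (p 0.00044). RNF225, a RING finger gene with a single exon, had 0.746 and 0.696, 2.38 and 2.25 and 8.0 and 9.91 RPKM in the same order, a difference of 1.74 (SE 0.24, unadjusted p 4.7e-05), and 2.43 in AMPK KO cells (p 3.3e-06). In both genes the cordycepin libraries stood above the 4 other WT libraries, and both were higher in either cell line. The further transcripts among the 12 largest increases were pseudogenes and small or antisense RNAs, namely RPS17P2 (2.11, p 0.0056), RPL23AP65 (1.93, p 0.0027), RPL15P4 (1.92, p 0.00015), VN2R17P (1.82, p 0.0089, split) and KLC2-AS2 (7 and 0 reads with DMSO+EGF and 28 and 20 with cordycepin+EGF), whose reads may belong to near-identical or overlapping genes.

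The lists for pathways near EGF and cordycepin had small shifts. In the EGF receptor and RAS-ERK pathway 4 genes were lower and 2 higher of 26 (median -0.13, -0.16 to -0.06), among them EGFR, the receptor itself, at 2.77 and 0.808 RPKM unstimulated, 2.69 and 2.45 with DMSO+EGF and 1.15 and 0.693 with cordycepin+EGF (-1.13, p 0.019, split). Of the lower genes of the list 2 of 4 and of the higher genes 2 of 2 were split. The PI3K-AKT-mTOR list gave 6 lower and 1 higher of 30 (-0.11), with EIF4EBP2, a translation repressor (-0.58, p 0.019, split), among the lower ones, of which 3 were split. Of 30 cleavage and polyadenylation factors 3 were lower and 0 higher (-0.05), and SCAF8, an anti-termination factor, had the largest difference (-0.40, p 0.0023), with 29.3 and 28.4 RPKM unstimulated, 26.6 and 27.7 with DMSO+EGF and 21.3 and 19.6 with cordycepin+EGF. For SCAF8 the cordycepin libraries lay below the 4 other WT libraries. Deadenylation and decay factors gave 5 lower and 1 higher of 33 (-0.02), XRN1, the cytoplasmic 5′ to 3′ exonuclease, being lowest (-0.68, p 0.030, split). Pause release factors gave 1 higher of 23 (0.11), HEXIM1 (0.41, p 0.049, split), an inhibitor of the kinase that frees paused polymerase. Genes of adenosine transport and metabolism gave SLC29A2, a nucleoside transporter, as lower (-0.41, p 0.022) and AMPD2, an AMP deaminase, as higher (0.49, p 0.038) of 17 (-0.07). Of 13 AMPK subunits and upstream kinase genes, 3 were lower, including both catalytic subunits, PRKAA1 (-0.63, p 0.0046) and PRKAA2 (-0.53, p 0.028, split), and 2 of the 3 were split.

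Among stress lists, the integrated stress response had 4 higher and 1 lower genes of 21 (median 0.06, 0.02 to 0.22). DDIT3, the stress transcription factor CHOP, had 3.30 and 4.36 RPKM unstimulated, 4.15 and 5.39 with DMSO+EGF and 7.17 and 11.7 with cordycepin+EGF, a difference of 0.88 (SE 0.27, unadjusted p 0.0093), above all 4 other WT libraries. CHAC1, a glutathione-degrading enzyme, was also higher (0.90, p 0.018, split), while ATF5, a transcription factor of the same response, was lower (-1.04, p 0.0028, split). Heat shock chaperones had 4 higher and 1 lower genes of 20 (median 0.20, 0.04 to 0.33). HSPA1A, the inducible HSP70, had 437 and 410.2 RPKM with DMSO+EGF and 687 and 804 RPKM with cordycepin+EGF (0.81, p 0.041, split), and DNAJB1, its co-chaperone, 13.5 and 15.6 and 21.4 and 28.3 RPKM (0.74, p 0.038, split). Unstimulated replicate 3 was at the cordycepin level for both (HSPA1A 337 and 726 RPKM and DNAJB1 11.3 and 25.5 RPKM in the unstimulated libraries). Mitosis and G2/M genes had 9 lower and 0 higher of 47 (median -0.14, -0.24 to -0.03), with PLK1, the mitotic kinase, at 29.8 and 24.7 RPKM unstimulated, 32.3 and 33.3 with DMSO+EGF and 19.9 and 20.5 with cordycepin+EGF (-0.69, p 0.0014, split), with both cordycepin libraries below the 4 other WT libraries. BIRC5, the survivin gene (-0.88, p 0.036, split), and KIF11, a spindle motor (-0.76, p 0.0080, split), were lower too, and 5 of the 9 lower genes were split. YAP and Hippo targets had 5 lower and 1 higher of 21 (-0.20), with the TEAD4 transcription factor lowest (-0.98, p 0.012, split) and ANKRD1 higher (0.80, p 0.012, split), and 3 of the 5 lower genes were split.

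The other lists held few differences, and 3 of 3 lower ribosome biogenesis genes, 2 of 3 lower DNA replication genes and 3 of 4 lower translation factors were split. DNA replication and S phase genes gave 3 lower and 1 higher of 40 (-0.03), ribosome biogenesis 3 lower and 0 higher of 41 (0.05), glycolysis and glucose uptake 2 lower and 0 higher of 25 (-0.05), and translation initiation and elongation factors 4 lower and 3 higher of 64 (-0.04). Cholesterol and fatty acid synthesis gave 4 higher and 0 lower of 26 (0.11), SC5D, a sterol desaturase (0.62, p 0.011), and SREBF2, the regulator of the pathway (0.39, p 0.017), among them. Zinc finger genes on chromosome 19, which lie there in clusters, had a median of 0.13 (0.09 to 0.15) with 26 higher and 10 lower of 204, but 22 of the 26 higher ones were split between the unstimulated libraries. Zinc finger genes on other chromosomes had 0.07 (19 higher and 18 lower of 203). These are bulk libraries, so fewer cells of a type and less RNA per cell cannot be told apart in any of these values.

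In AMPK KO cells under the same treatments, the contrast gave 2578 higher (11.7%) and 2227 lower genes (10.1%) at an unadjusted p under 0.05. The study's threshold was passed by 656 higher (2.97%) and 87 lower genes (0.394%), and an adjusted p of 0.05 in limma by 85 higher (0.385%) and 19 lower ones (0.0861%). The knocked-out genes were still listed in these cells, with PRKAA1 at 8.44 and 7.45 RPKM and PRKAA2 at 6.91 and 6.68 RPKM in AMPK KO DMSO+EGF, against 17.2 and 18.5 and 9.87 and 11.1 RPKM in WT, so RNA level does not check the knockout. Divergent transcripts had a median of 0.22 there (53 higher and 9 lower), mitochondrial tRNAs -1.32 (0 higher and 7 lower), and lncRNAs 0.27 (800 and 87), each with the sign seen in WT. Low genes of all kinds also leaned upward in this line, with a median of 0.24 in the lowest level bin. Under 1 RPKM protein-coding genes had 0.24, divergent transcripts 0.22 and lncRNAs 0.26, so at that level the rise was not particular to a class. From 5 RPKM the medians were -0.16, 0.23 and 0.20 in this order. Heat shock chaperones had -0.48 (0 higher and 11 lower) against 0.20 in WT, a difference that was not tested as a list. Abundant genes of all kinds leaned downward in AMPK KO cells, with a median of -0.21 and 26.1% lower in the highest level bin. Mitosis and G2/M genes had -0.34 there (1 higher and 23 lower of 47), so a fall in this line was not particular to chaperones. EGR1 had 106 and 106 RPKM with DMSO+EGF and 45.4 and 71.4 RPKM with cordycepin+EGF in AMPK KO cells, a difference of -0.89 (p 0.0010), and the WT difference was larger (interaction p 0.0022, unadjusted). ARC (2.25 and 1.90 and then 1.01 and 1.69 RPKM, -0.50, interaction p 0.00057) and MYC (11.1 and 9.78 and then 5.44 and 11.7 RPKM, -0.36, interaction p 0.0037) began from lower levels there. LINC02226 had 45.1 and 51.9 RPKM and 15.2 and 14.1 RPKM, a difference of -1.69 (p 5.8e-05), against -2.03 in WT, and the difference between the lines was -0.34 (SE 0.34, interaction p 0.34). FOS had 0.45 (limma interaction p 0.0028) and EGR3 0.16 (limma interaction p 0.00016) in AMPK KO cells, both above 0. By RT-qPCR the paper reports a smaller FOS induction with cordycepin in both lines. For FOS in AMPK KO cells the value here went the other way, and the reason was not tested. Across all genes 4716 differences between the lines had an unadjusted p under 0.05 (21.4%), and none had an adjusted p under 0.05 in limma on log2 RPKM, although 2006 did when unstimulated WT replicate 3 was left out, 1999 without replicate 2, and 2141 with voom. The AMPK KO cordycepin+EGF replicates also differed from each other on the split genes, as the plot of split genes shows.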

How the data were processed

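RNA from 12 HEK293 libraries was sequenced by the authors as paired reads of 150 bases, quality checked with FastQC, mapped to GRCh38.p13 and counted per gene with Rsubread (versions are not given in the sources used here). The authors deposited RPKM values for 26058 genes. Another 2 rows carried no gene name and were excluded. The authors discarded replicate 1 of each condition, which was not analysed here.

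Groups and replicate numbers came from the sample labels. Gene IDs were matched to GENCODE release 44 (26029 genes). RPKM were divided by each library's upper quartile and multiplied by the mean of these quartiles over the 12 libraries. Genes with a mean of at least 0.5 RPKM as deposited over the 12 libraries were kept (22067). log2(RPKM + 0.5) was fitted with limma 3.58.1 in R 4.3.3, with a group mean model over 12 libraries, eBayes with trend, 6 residual degrees of freedom (8.96 after moderation), two-sided tests and Benjamini-Hochberg adjustment. The fit was tested on simulated data that held no difference between cell lines or between the unstimulated WT libraries. That test therefore does not bear on the split described above. Transcript classes came from biotypes and symbols, and each pairing is 1 cordycepin library minus 1 DMSO+EGF library. The members and lists were chosen with earlier results of these data known.

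RPKM steps gave whole reads, within 0.05 of a read, for 96.3% of genes at the annotated length and 99.3% after a length search, and these reads were used for depth and in the voom alternative. Deviations of same-numbered WT libraries correlated at 0.14 to 0.31 in all 3 pairs of groups, and those of AMPK KO libraries at -0.12 to 0.03. Replicate 3 was the shallower library in each WT group, and the part of depth in these correlations was not tested. Whether replicate numbers paired the samples is therefore not known, and the main fit did not block on them.

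Genes named in the text are EGR1, MYC and ARC, the 12 largest rises and falls with a symbol, a mean of at least 1 RPKM, no overlap between groups and past the study's threshold, the 6 largest protein-coding ones each way, and per class up to 4 members at an unadjusted p under 0.05 with the largest change and the 2 most abundant. Other named genes were chosen after their values were seen.

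Alternatives were other pseudocounts, filters, scalings, libraries in the fit, replicate blocks, eBayes without trend, voom and each library left out. Leaving out an unstimulated WT library was chosen after seeing the data.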

Additional observations from a re-analysis of the deposited data

How the results depend on the processing

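Past the study's threshold, a pseudocount of 0.1 gave 667 higher and 367 lower genes, a pseudocount of 1 gave 175 and 136, voom 896 and 486, and leaving out 1 of the 4 libraries 328 to 497 and 156 to 424, the 424 without cordycepin+EGF replicate 2. At an adjusted p under 0.05, higher genes numbered 387 with voom, 3 without unstimulated WT replicate 2 or 3, and 0 to 1 with 1 of the 4 libraries left out. Lower genes numbered 394 with voom, 5 with the replicate block, 4 without unstimulated WT replicate 2 or 3, 2 with a pseudocount of 1, and 0 with a pseudocount of 0.1, with only the 4 libraries or only the 6 WT libraries, with the replicate block in the 4 libraries, without the trend, and with any of the 4 libraries left out. At an unadjusted p under 0.05, higher and lower genes numbered 1288 and 892 in the 6 WT libraries, 3440 and 2888 with the replicate block in the 4 libraries, 2750 and 2517 with voom, and 1049 to 1544 and 648 to 1310 with 1 of the 4 libraries left out. Differences between the cell lines numbered 1128 in the 8 EGF-stimulated libraries, 2141 with voom and 1999 or 2006 without unstimulated WT replicate 2 or 3. These differences between the cell lines were counted at an adjusted p under 0.05, where the main fit gave 0. The median of lncRNAs above all genes was 0.15 and 0.0817 with pseudocounts of 0.1 and 1, 0.14 with a filter at 1 RPKM, 0.16 with voom and 0.0550 to 0.16 with a library left out. That of divergent transcripts was 0.38, 0.22 and 0.41 with the same pseudocounts and voom. That of inducible transcription factors was -0.26 with a pseudocount of 0.1, -0.26 with voom and -0.27 to -0.12 with a library left out, and that of mitochondrial tRNAs -1.41 to -0.91. These 4 class medians kept their sign under every alternative run. The alternatives that changed only the estimate of the spread left the medians as they were, so those could not have changed a sign. The median of the second span bin reversed to -0.0037 without cordycepin+EGF replicate 3 (highest with a library left out, 0.0944), and that of the middle bin to 0.0233 and 0.0214 without DMSO+EGF replicate 3 or cordycepin+EGF replicate 2 (lowest, -0.0469). The shortest bin ran from 0.0235 to 0.16 and the longest minus the shortest from -0.40 to -0.18 with a library left out. The causes were not tested. Of 2045 values of the 114 genes named, 178 crossed to an unadjusted p over 0.05 and 9 crossed the other way. None of the 101 named genes at an unadjusted p of at most 0.05 changed sign under any setting run, and 5 of the 13 that did not pass did. Most of the 101 were named for that p and had groups without overlap. For such genes, leaving out 1 of the 4 libraries could not change the sign. Settings that changed only the estimate of the spread could not either. Leaving out cordycepin+EGF replicate 3 took 39 genes over that p and the other 3 libraries 24 to 33, and there the lone sample of a group is assumed to vary like the others. The replicate block within each cell line moved 2 of the 114 genes over that p, besides the 4 genes that it brought under an adjusted p of 0.05. With 2 libraries a side, low reads on short or rare transcripts limit what differences could be seen.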
